A study of Mus musculus with 4 samples.

Results

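The interferon response and MHC class I antigen presentation were followed through 47 genes, of 23235 gene symbols measured. The genes were taken by symbol from their known roles and comprised 22 interferon-stimulated effectors, 7 nucleic acid sensors and adaptors, 8 receptors and Irf or Stat factors, and 10 genes of class I presentation. All 47 had a value in each sample, although 16 of them had a mean below 1 FPKM (fragments scaled to transcript length and library size), too low for the test used here.

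The samples came from HG165, a haploid embryonic stem cell (haESC) line of the mouse that carries a single paternal genome (androgenetic). Its cells received either the solvent DMSO or RDF, a cocktail of 3 small molecules in which Repsox blocks TGF-β signalling, DMH1 blocks BMP signalling and Forskolin raises cyclic AMP, and 2 samples of each condition were sequenced as polyadenylated RNA. All samples represent 1 line, and the doses, the length of treatment and the ploidy of the sequenced samples are not given in the sources used here. The growth protocol names feeder cells, while the study's methods limit them to a few assays among which RNA-seq is not listed. Nothing states that replicates came from separate cultures, so p-values measure only the spread between these samples, which may be technical.

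Interferons are secreted proteins that bind receptors of the Ifnar and Ifngr families, which act through Jak kinases on Stat transcription factors. Stat factors bind the interferon-stimulated response element (ISRE), where Stat2 and Irf9 act in a complex, and the gamma-activated site (GAS), in the promoters of antiviral and antigen presentation genes. Pluripotent stem cells are known to respond weakly to interferon and to hold some of these genes, the Ifitm family among them, at a steady level without it.

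Promoter windows were available for 38 of the 47 genes from RefSeq on build GRCm38.p6, each running from 250 bases before to 50 bases after an annotated start site. No window was found for Dhx58, Mx1, Mx2, Nlrc5, Oas2, Tap2, Tmem173, Usp18 and Zbp1. An ISRE-like match (GAAANNGAAA, or TTTCNNTTTC on the other strand, overlapping matches counted) was present in 17 of the 38 genes (44.7%), against 3.99% of all 27025 genes with a window. A GAS-like match (TTCNNNGAA, which reads the same on both strands) was present in 11 (28.9%), against 9.55% of all genes. Of the genes with a window that fell in RDF, 2 of 5 had an ISRE-like match, compared with 9 of 21 that were tested and not called and 5 of 11 that were below the filter. The 4 windows printed here, 5′ to 3′ on the strand of the gene with the ISRE-like letters in capitals, show matches to the same pattern, with different letters at its free positions, before genes that fell, rose or were not called. Gbp2 (chr3:142620413-142620712, plus strand, match starting at position −59 from the start site) and Irgm1 (chr11:48871371-48871670, minus strand, with 2 overlapping matches) fell, B2m (chr2:122147437-122147736, plus strand, position −139) rose, and Ifitm2 (chr7:140955912-140956211, minus strand, position −46) was not called.
Gbp2: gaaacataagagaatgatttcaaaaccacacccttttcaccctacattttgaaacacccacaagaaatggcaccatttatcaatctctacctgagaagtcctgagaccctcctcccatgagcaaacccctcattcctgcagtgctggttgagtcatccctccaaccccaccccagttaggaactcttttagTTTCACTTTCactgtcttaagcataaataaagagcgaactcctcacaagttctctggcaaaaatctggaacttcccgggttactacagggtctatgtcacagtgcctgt
Irgm1: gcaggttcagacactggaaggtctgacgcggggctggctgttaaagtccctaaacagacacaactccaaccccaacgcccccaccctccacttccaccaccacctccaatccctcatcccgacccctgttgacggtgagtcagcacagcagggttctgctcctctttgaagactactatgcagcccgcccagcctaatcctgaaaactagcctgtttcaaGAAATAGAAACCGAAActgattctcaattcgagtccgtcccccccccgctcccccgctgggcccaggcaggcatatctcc
B2m: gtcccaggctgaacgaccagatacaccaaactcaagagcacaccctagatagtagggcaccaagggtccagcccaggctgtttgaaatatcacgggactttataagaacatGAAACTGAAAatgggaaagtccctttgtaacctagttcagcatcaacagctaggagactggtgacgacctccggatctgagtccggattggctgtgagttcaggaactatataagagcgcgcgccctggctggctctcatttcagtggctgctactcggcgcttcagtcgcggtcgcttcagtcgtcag
Ifitm2: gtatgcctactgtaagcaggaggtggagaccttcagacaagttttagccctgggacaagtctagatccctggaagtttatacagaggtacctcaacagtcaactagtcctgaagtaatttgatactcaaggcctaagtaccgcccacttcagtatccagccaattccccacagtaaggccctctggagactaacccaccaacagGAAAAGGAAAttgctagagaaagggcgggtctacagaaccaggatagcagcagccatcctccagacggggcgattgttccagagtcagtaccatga
A match of letters in these windows is a description and does not show that a factor was bound.

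Of the 31 genes that could be tested, 7 fell in RDF, 1 rose and 23 were not called by limma on log2(FPKM + 1) at an adjusted p of 0.05, with Benjamini-Hochberg adjustment over all 11733 genes tested. The genes that fell were Gbp2, Irgm1, Zbp1, Psmb10, Psmb8, Tap2 and Tapbp, and the gene that rose was B2m. The share that fell was 22.6%, against 8.28% of all genes tested, and the share that rose was 3.23%, against 13.3%. Both RDF values lay under both DMSO values in 23 of the 31 (74.2%) and above them in 2, where 28.5% of all genes tested were lower and 37.1% higher in this way. The log2 fold change was below 0 in 28 of the 31, with a median of −0.17, while the median over all genes tested was 0.03. For Irgm1 and Zbp1 the mean of the RDF samples was below 1 FPKM, so that they entered the test only through their DMSO values. The counts are given as a description, since the genes were also chosen with earlier results of these data in view. In bulk samples, fewer cells of a type and less RNA per cell cannot be told apart.

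**Figure D1:**
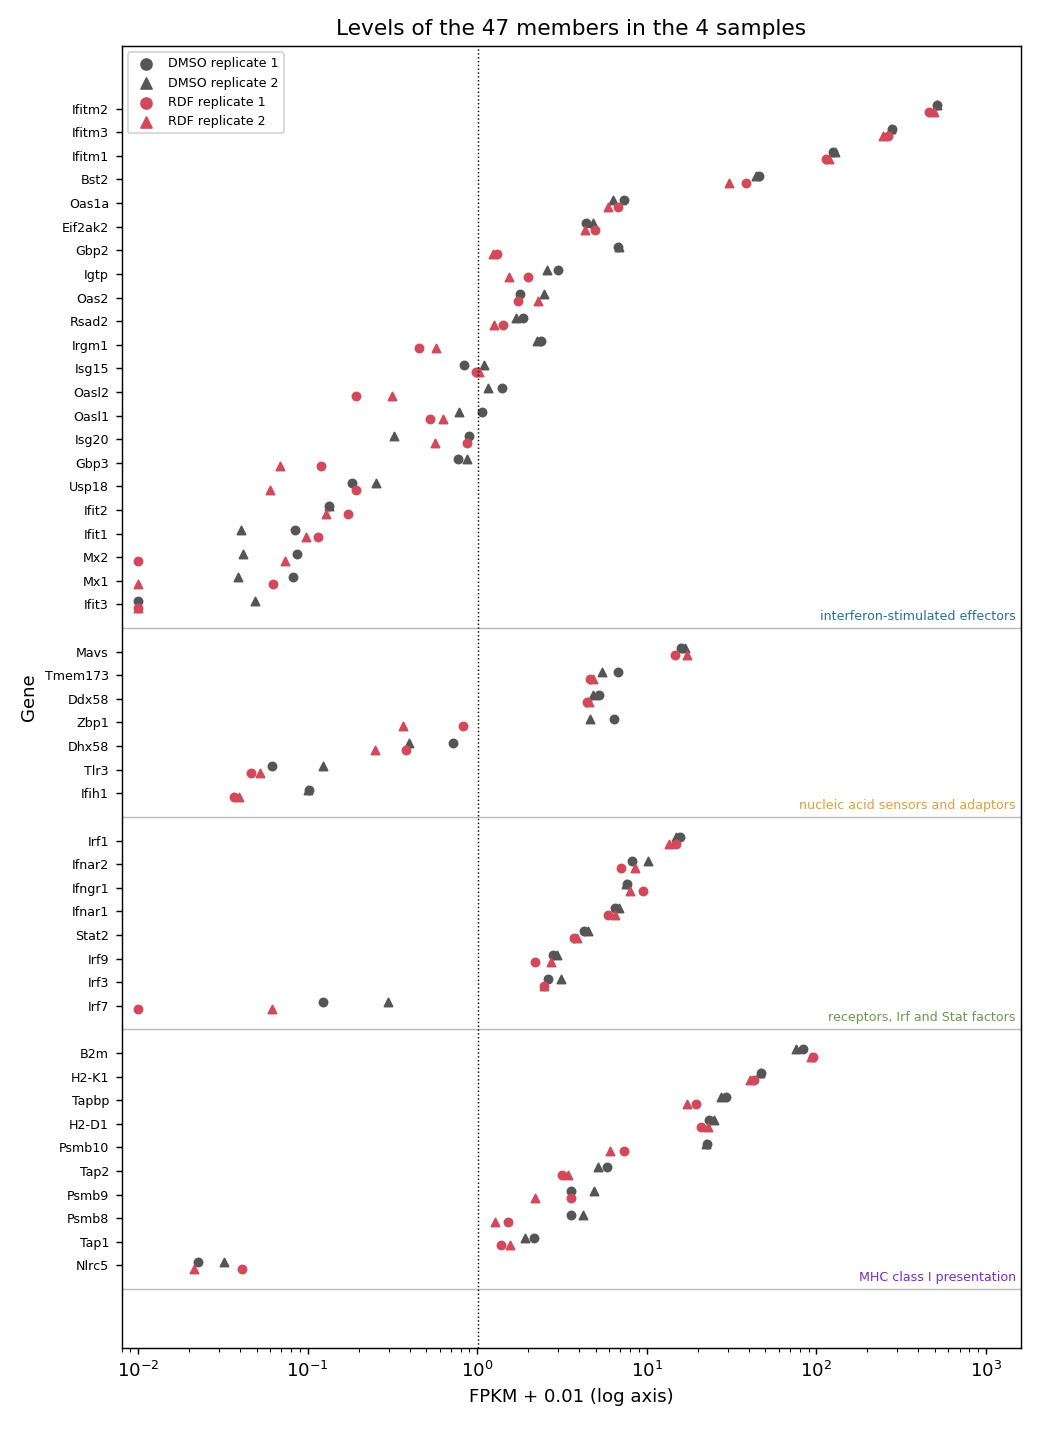
FPKM + 0.01 (log axis) of the 47 genes in each of the 4 samples, grouped by role and ordered by mean, with DMSO in grey, RDF in red, replicates as circles and triangles, and a dotted line at the 1 FPKM filter. The Ifitm genes lie highest, at 114 to 516 FPKM, and Gbp2, Irgm1, Zbp1 and Psmb10 show the RDF points well to the left of the DMSO points.

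Among the 22 effectors, the antiviral proteins at the end of the pathway, 11 were tested. Of these, 2 fell (18.2%, against 8.28% of all genes tested) and none rose (against 13.3%). The steepest fall was that of Gbp2, a guanylate-binding GTPase that acts on vacuoles of intracellular pathogens (chromosome 3, 142283566 to 142300972, NCBIM37). Its level was 6.76 and 6.85 FPKM in DMSO and 1.30 and 1.24 FPKM in RDF. The replicates lay close together and the groups far apart, with a mean in RDF that was 18.6% of that in DMSO (log2 fold change −1.78, SE 0.09, limma adjusted p = 0.000464). Irgm1, an immunity-related GTPase that takes part in autophagy and in control of other GTPases of its family, stood at 2.37 and 2.26 FPKM in DMSO and 0.445 and 0.565 FPKM in RDF. Both RDF values were low and the groups did not overlap (log2 fold change −1.14, SE 0.11, adjusted p = 0.0029). With 0.1 in place of 1 added to the FPKM, the log2 fold change of Irgm1 was −2.004. Igtp, another GTPase of the Irgm1 family, had 2.98 and 2.57 FPKM in DMSO and 1.99 and 1.53 FPKM in RDF. Its groups did not overlap either, but it was not called (log2 fold change −0.46, SE 0.13, adjusted p = 0.052). Its adjusted p fell under 0.05 with median-ratio scaling (0.0479), quantile normalization (0.0413), no mean-variance trend (0.0478) and a replicate block (0.0369), and ranged up to 0.213 without RDF replicate 2.

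The Ifitm genes, membrane proteins that restrict the entry of enveloped viruses, were the most abundant of the 47. Ifitm2 measured 516 and 516 FPKM in DMSO and 460 and 497 FPKM in RDF, Ifitm3 281 and 274 FPKM against 266 and 247 FPKM, and Ifitm1 125 and 129 FPKM against 114 and 119 FPKM. All RDF values lay under the DMSO values, by a log2 fold change of −0.11, −0.11 and −0.12, and no Ifitm gene was called (adjusted p = 0.253, 0.225 and 0.157). These genes are close paralogs, and how reads shared between them were divided is not stated. Bst2, or tetherin, which holds budding virions at the cell surface, was next among the effectors at 45.9 and 44.2 FPKM in DMSO and 38.6 and 30.5 FPKM in RDF. The RDF replicates of Bst2 differed from each other by more than the DMSO replicates did, and its adjusted p of 0.0537 (log2 fold change −0.38, SE 0.11) missed the threshold. It passed with median-ratio scaling (0.0489), with a replicate block (0.0249) and without RDF replicate 1 (log2 fold change −0.54, 0.0355), and not in the other alternatives, among them without RDF replicate 2 (log2 fold change −0.22, 0.148).

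The other 4 tested effectors were not called. Rsad2 (viperin) had 1.86 and 1.69 FPKM in DMSO and 1.41 and 1.25 FPKM in RDF, without overlap (log2 fold change −0.25, adjusted p = 0.152). In Oas1a and Oas2, synthases of the oligoadenylates that activate RNase L, and in Eif2ak2 (Pkr), the kinase that halts translation in response to double-stranded RNA, the groups overlapped. Eif2ak2 gave 4.36 and 4.81 FPKM in DMSO and 4.96 and 4.30 FPKM in RDF, with a log2 fold change of 0.01 (SE 0.10) that turned to −0.02 with median-ratio scaling and −0.05 with quantile normalization.

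**Figure D2:**
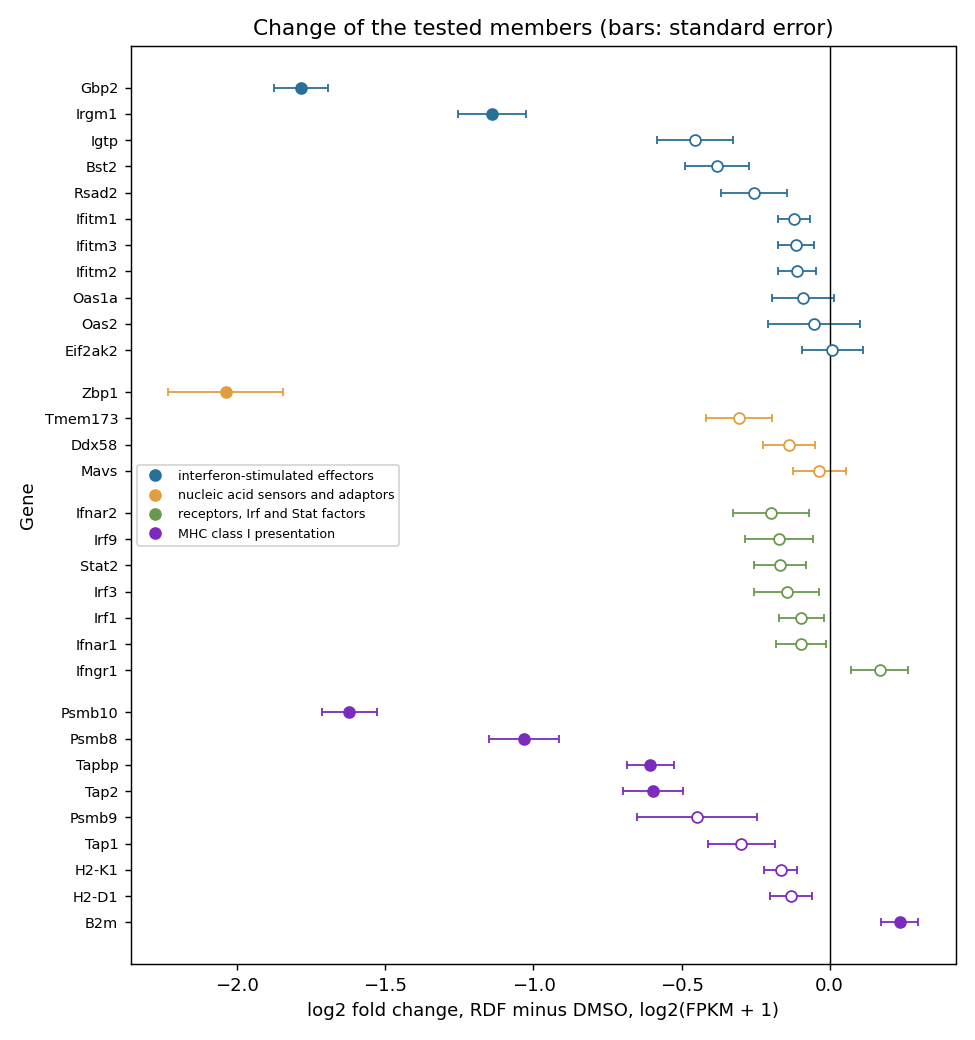
Log2 fold change (RDF minus DMSO, log2(FPKM + 1)) of the 31 tested genes with limma's standard error, grouped by role. Filled points passed an adjusted p of 0.05; Zbp1 lies farthest to the left at −2.04, the receptors and the Irf and Stat factors lie between −0.20 and 0.17, and B2m is the only filled point above 0, at 0.24.

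The remaining 11 effectors had means under 1 FPKM and were not tested. Isg15, the ubiquitin-like modifier that is a common reporter of an interferon response, was near 1 FPKM in every sample, with 0.823 and 1.09 FPKM in DMSO and 0.970 and 1.01 FPKM in RDF. Oasl2, an antiviral protein related to the Oas synthases, had 1.40 and 1.15 FPKM in DMSO and 0.184 and 0.303 FPKM in RDF. Gbp3, the neighbour and paralog of Gbp2 on chromosome 3, had 0.764 and 0.860 FPKM in DMSO and 0.110 and 0.0586 FPKM in RDF. Oasl2 and Gbp3 were lower in both RDF samples without overlap, and when the filter on low values was dropped limma called them, with an adjusted p of 0.0209 for Oasl2 and 0.0164 for Gbp3, with 3.36% of 18012 genes called lower and 5.23% higher. None of the 16 was called higher in that fit. In RDF the values stood for an estimated 7.11 and 10.9 fragments for Oasl2 and 3.64 and 1.81 for Gbp3. In DMSO they stood for 41.6 and 40.6 for Oasl2 and 19.5 and 26.2 for Gbp3. Oasl1 also had both RDF values under both DMSO values, at 0.515 and 0.623 against 1.06 and 0.77 FPKM, and was not called without the filter. Isg20, an exonuclease that degrades viral RNA, lay between 0.314 and 0.881 FPKM with overlapping groups. Ifit1, Ifit2, Ifit3, Mx1, Mx2 and Usp18, the genes most often used to detect an interferon response beside Isg15, were all at or below 0.243 FPKM. Ifit3 was listed at 0 in 3 of the 4 samples, and Mx1 and Mx2 each in 1 RDF sample.

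**Figure D3:**
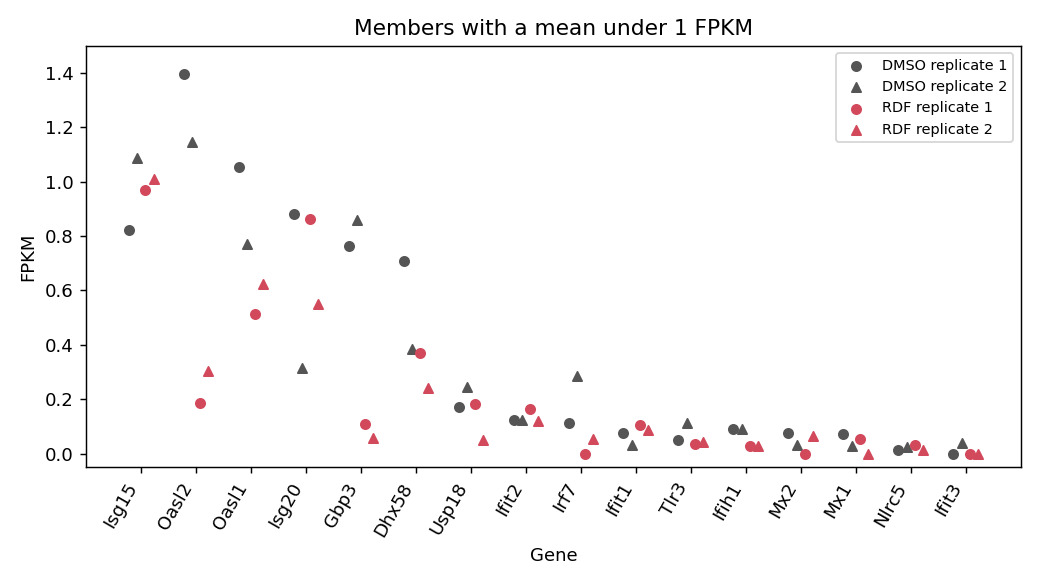
FPKM of the 16 genes with a mean under 1 FPKM, in each of the 4 samples, with DMSO in grey, RDF in red and replicates as circles and triangles. Oasl2 and Gbp3 show both RDF points far below both DMSO points, whereas Isg15 lies near 1 FPKM in all samples and Ifit1, Tlr3, Ifih1, Mx2, Mx1, Nlrc5 and Ifit3 lie at 0.113 FPKM or less in both conditions.

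Of the 7 sensors and adaptors, 4 were tested and 1 fell (25%, against 8.28% of all genes tested). That gene was Zbp1 (chromosome 2, 173032113 to 173044424), a receptor for Z-form nucleic acids that can start necroptosis and is itself induced by interferon. Zbp1 measured 6.43 and 4.59 FPKM in DMSO and 0.812 and 0.357 FPKM in RDF, so that even the lower DMSO sample was far above the higher RDF sample. The mean in RDF was 10.6% of that in DMSO (log2 fold change −2.04, SE 0.19, adjusted p = 0.0025), and the log2 fold change was −3.10 with a pseudocount of 0.1. It was the lowest log2 fold change of the 31.

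The other sensors were not called. Mavs, the mitochondrial adaptor below the RNA helicases, had 15.8 and 16.8 FPKM in DMSO and 14.7 and 17.2 FPKM in RDF, with overlapping groups (log2 fold change −0.03, adjusted p = 0.807). Ddx58 (Rig-I), a helicase that senses viral RNA, had 5.25 and 4.84 FPKM in DMSO and 4.43 and 4.55 FPKM in RDF. Tmem173 (Sting), the adaptor for cytosolic DNA sensing, had 6.73 and 5.43 FPKM in DMSO and 4.61 and 4.81 FPKM in RDF. In both genes the RDF values were the lower ones, with an adjusted p of 0.296 for Ddx58 and 0.102 for Tmem173. Ifih1 (Mda5), Dhx58 and the endosomal receptor Tlr3 were below the filter at 0.707 FPKM or less, each with both RDF values under both DMSO values. This order held for 28.5% of the genes that passed the filter, and the share among genes below it was not computed. Ifih1, Dhx58 and Tlr3 were not called without the filter. The values of Ifih1 and Tlr3 stood for an estimated 5.64 fragments or fewer per sample. For Tlr3 the gap was small, with 0.0516 and 0.113 FPKM in DMSO and 0.0363 and 0.0421 FPKM in RDF.

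None of the 7 tested receptors and Irf or Stat factors was called, in either direction, by limma, and their log2 fold changes had a median of −0.14. Irf1, a transcription factor that activates class I genes, was the most abundant at 15.8 and 14.8 FPKM in DMSO and 14.9 and 13.6 FPKM in RDF. The groups of Irf1 overlapped (log2 fold change −0.10, adjusted p = 0.395). The chains of the type I receptor were present at 6.52 and 6.82 FPKM in DMSO and 5.90 and 6.47 FPKM in RDF for Ifnar1, and at 8.15 and 10.1 against 7.08 and 8.56 FPKM for Ifnar2, with overlap for Ifnar2 only. Ifngr1, the ligand-binding chain of the type II receptor, was at 7.68 and 7.52 FPKM in DMSO and 9.44 and 7.96 FPKM in RDF, and it was the 1 gene of this group with both RDF values above both DMSO values (log2 fold change 0.17, adjusted p = 0.249). Stat2 and Irf9, partners in the complex that binds the ISRE, had 4.27 and 4.48 against 3.70 and 3.87 FPKM, and 2.80 and 2.95 against 2.19 and 2.71 FPKM. Both lay slightly lower in RDF without overlap, with an adjusted p of 0.219 for Stat2 and 0.318 for Irf9. Irf3, the factor that viral sensing activates, was not called (adjusted p = 0.372). Irf7, its interferon-induced relative, was at 0.113 and 0.286 FPKM in DMSO and 0 and 0.0519 FPKM in RDF, below the filter.

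Among the 10 class I genes, 9 were tested, of which 4 fell (44.4%) and 1 rose (11.1%), against 8.28% and 13.3% of all genes tested. Class I molecules show peptides at the cell surface: proteasomes cut proteins, the Tap transporter carries the peptides into the endoplasmic reticulum, and tapasin loads them onto a heavy chain paired with beta-2 microglobulin. Within these 10, the genes that fell act before or during loading, but Psmb9 and Tap1, which also act before loading, were not called. Of the surface chains, H2-K1 and H2-D1 were not called, though both lay lower in RDF without overlap. B2m rose, a call that was lost in several alternatives. Some heavy chains outside the 10 also fell, H2-T22 among them (log2 fold change −1.02), and others were not called. Whether these changes differ from each other was not tested.

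Psmb8, Psmb9 and Psmb10 encode the catalytic subunits of the immunoproteasome, which interferon induces and which replace the constitutive subunits Psmb5, Psmb6 and Psmb7. Psmb10 (chromosome 8, 108459628 to 108462292) had 22.7 and 22.4 FPKM in DMSO and 7.30 and 6.07 FPKM in RDF. The replicates agree closely and the mean in RDF was 29.6% of that in DMSO (log2 fold change −1.62, SE 0.09, adjusted p = 0.000615). Psmb8 (chromosome 17, 34334666 to 34338399) had 3.58 and 4.21 FPKM in DMSO and 1.52 and 1.27 FPKM in RDF. Both RDF values were again low, at 35.8% of the DMSO mean (log2 fold change −1.03, SE 0.12, adjusted p = 0.00397). Psmb9 had 3.56 and 4.90 FPKM in DMSO and 3.55 and 2.18 FPKM in RDF. Its groups touched without overlapping, RDF replicate 1 standing just under DMSO replicate 1, and Psmb9 was not called (log2 fold change −0.45, SE 0.20, adjusted p = 0.162).

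Set against its constitutive partner in the same sample, Psmb10 was 4.77% and 4.52% of Psmb7 in DMSO and 1.53% and 1.36% in RDF. Psmb8 was 1.23% and 1.29% of Psmb5 in DMSO and 0.529% and 0.448% in RDF. For Psmb9 the share of Psmb6 was 0.923% and 1.20% in DMSO and 1.05% and 0.632% in RDF, and only here did the conditions overlap. The constitutive subunits themselves had log2 fold changes of −0.11 for Psmb5, −0.21 for Psmb6 and −0.07 for Psmb7, and of these Psmb6 fell (adjusted p = 0.0483). That call was lost without the filter (0.0820), with quantile normalization (0.115), without the trend (0.0918) and without DMSO replicate 2 (0.135), RDF replicate 1 (0.198) or RDF replicate 2 (0.174).

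**Figure D4:**
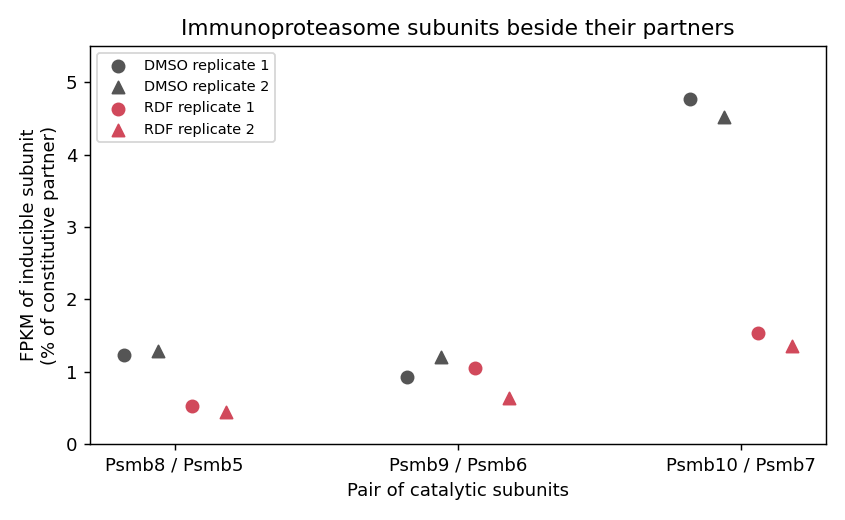
FPKM of each inducible proteasome subunit as a percentage of its constitutive partner in the same sample (linear axis from 0), with DMSO in grey, RDF in red and replicates as circles and triangles. Psmb10 drops from 4.77% and 4.52% of Psmb7 in DMSO to 1.53% and 1.36% in RDF and Psmb8 from 1.23% and 1.29% of Psmb5 to 0.529% and 0.448%, while the points of Psmb9 overlap.

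Of the transport and loading genes, Tapbp and Tap2 fell. Tapbp (tapasin; chromosome 17, 34052844 to 34066235) had 29.5 and 27.4 FPKM in DMSO and 19.5 and 17.3 FPKM in RDF. The groups stood apart, with a mean in RDF of 64.6% of that in DMSO (log2 fold change −0.61, SE 0.08, adjusted p = 0.0059). Tap2, a chain of the peptide transporter, had 5.83 and 5.13 FPKM in DMSO and 3.14 and 3.43 FPKM in RDF (log2 fold change −0.60, SE 0.10, adjusted p = 0.0116). The fall of Tap2 was past the threshold in the full data but not without RDF replicate 1 (log2 fold change −0.55, adjusted p = 0.0747) or without RDF replicate 2 (−0.65, adjusted p = 0.0625). Tap1, its partner chain, had 2.16 and 1.90 FPKM in DMSO and 1.38 and 1.55 FPKM in RDF, lower in both RDF samples but not called (log2 fold change −0.30, SE 0.11, adjusted p = 0.109).

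The heavy chains H2-K1 and H2-D1 were not called. H2-K1 had 47.3 and 46.6 FPKM in DMSO and 43.0 and 40.6 FPKM in RDF (log2 fold change −0.17, SE 0.06, adjusted p = 0.0888). H2-D1 had 23.3 and 24.8 FPKM in DMSO and 20.9 and 22.9 FPKM in RDF (log2 fold change −0.13, SE 0.07, adjusted p = 0.240). In both, all RDF values were slightly under the DMSO values, and heavy chain genes are similar enough in sequence to share reads. B2m, the light chain of all class I molecules, had 83.0 and 76.0 FPKM in DMSO and 95.0 and 92.4 FPKM in RDF, the reverse order. Its rise was small (log2 fold change 0.24, SE 0.06, adjusted p = 0.0439) and depended on single samples: the adjusted p was 0.143 without DMSO replicate 2, 0.181 without RDF replicate 1 and 0.147 without RDF replicate 2. It also passed the threshold only with the filter (0.0811 without it), and missed it with median-ratio scaling (0.0682) and without the mean-variance trend (0.0911). Nlrc5, the transactivator of class I genes, was at 0.0309 FPKM or less in every sample and was not tested.

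Of the 8 genes that were called, Tapbp, Tap2, Psmb8, Psmb10 and B2m overlap another annotated gene on NCBIM37, and Psmb9 and Tap1 share 200 bases at their heads. The libraries were stranded, but the strand setting used in counting is not stated, so reads of such partners may not have been told apart.

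Of the class I genes, 7 of the 9 tested lie in a stretch of the MHC region of chromosome 17 (34052844 to 35404444, from Tapbp to H2-D1), where 63 genes were tested in all. Further class I genes of the MHC region lie beyond H2-D1 and are not counted here, among them H2-T22, which fell. In the stretch from Tapbp to H2-D1, 12 genes (19%) fell and 2 rose, and the median log2 fold change was −0.10. Over all genes tested, 8.28% fell and 13.3% rose. The 7 class I genes included 3 that fell (42.9%), Tapbp, Psmb8 and Tap2, with a median of −0.45. The other 56 genes of the stretch included 9 that fell (16.1%) and 2 that rose, with a median of −0.06. The genes that rose were Brd2 and Agpat1, and the lowest log2 fold changes were −2.31 for Hspa1a and −1.79 for Hspa1b, heat shock genes; these 4 were picked after their values were seen. Psmb10 and B2m lie on other chromosomes.

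**Figure D5:**
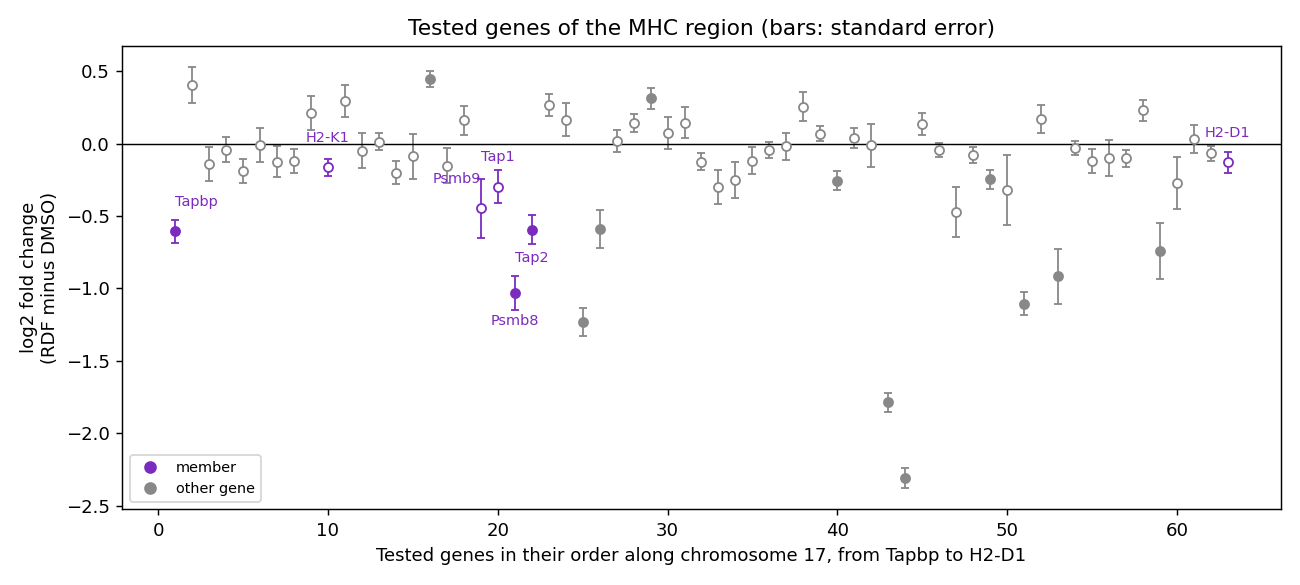
Log2 fold change (RDF minus DMSO) with limma's standard error of the 63 tested genes of the MHC region from Tapbp to H2-D1, in their order along chromosome 17, with class I genes of the set in purple, other genes in grey and filled points for an adjusted p under 0.05. Psmb8 at −1.03, Tapbp at −0.61 and Tap2 at −0.60 are filled, H2-K1 at −0.17 and H2-D1 at −0.13 are open, and the lowest points are the grey genes Hspa1a at −2.31 and Hspa1b at −1.79.

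The 47 genes were set beside 123 other genes of the pathway, of which 70 were tested. Of these, 18 fell (25.7%) and 4 rose (5.71%), against 8.28% and 13.3% of all genes tested. The median log2 fold change of the 70 was −0.06, against 0.03 over all genes tested. At the head of the pathway, 9 of 11 interferon ligands were listed at 0 in all samples, and the highest value of the others was 0.106 FPKM, for Ifnk in RDF replicate 1. Ifng was listed at 0 in both DMSO samples and at 0.0756 and 0.0844 FPKM in RDF, and both genes were picked after their values were seen. Each of these values above 0 stood for only an estimated 1.05 to 1.17 fragments. Of the 21 tested genes of receptor and sensor signalling, 3 rose (14.3%, near the 13.3% of all genes tested) and none fell (against 8.28%). Those that rose were the transcription factor Irf8 (4.37 and 4.39 FPKM in DMSO, 6.68 and 7.01 FPKM in RDF, log2 fold change 0.54, adjusted p = 0.0087), the ubiquitin ligase Trim25 (log2 fold change 0.39, adjusted p = 0.0173) and the receptor-associated kinase Jak1 (log2 fold change 0.25, adjusted p = 0.0353). The call of Jak1 was lost without the filter (0.0577), without the trend (0.0655) and without any 1 of the samples (0.0879 to 0.160), that of Irf8 without RDF replicate 1 (0.0539) or 2 (0.0676), and that of Trim25 without RDF replicate 2 (0.0926).

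Of the 20 further interferon-stimulated genes tested, 9 fell (45%) and 1 rose (5%), against 8.28% and 13.3% of all genes tested. Sp110, a nuclear body protein, had 2.78 and 2.67 FPKM in DMSO and 0.570 and 0.696 FPKM in RDF (log2 fold change −1.19, limma adjusted p = 0.00238). The mean of Sp110 in RDF was 0.633 FPKM, so that it entered the test only through its DMSO values. The other falls included Parp9 (−0.70) and the RNA helicase Mov10 (−0.57). The gene that rose was Ube2l6, the enzyme that carries Isg15 for conjugation, with 48.7 and 49.1 FPKM in DMSO and 80.4 and 73.2 FPKM in RDF (log2 fold change 0.64, adjusted p = 0.00286). Of the 20 other tested genes for class I molecules and peptide supply, 7 fell (35%, against 8.28% of all genes tested) and none rose (against 13.3%). They included the proteasome activator subunits Psme2 (82.3 and 74.8 FPKM in DMSO, 49.2 and 41.9 FPKM in RDF, log2 fold change −0.78, adjusted p = 0.00423) and Psme1 (−0.40), the peptide-trimming peptidase Erap1 (−0.79) and the nonclassical heavy chain H2-T22 (−1.02). Heavy chains of the H2-Q and H2-M groups were also among the 7, while other tested heavy chains of this list were not called. Of 6 tested MHC class II genes only Cd74, the invariant chain, was called, with a log2 fold change of −0.41 (adjusted p = 0.0147). Without RDF replicate 1 or RDF replicate 2 the calls of Psme1 (0.0652 and 0.0712), Erap1 (0.0677 and 0.0658) and Cd74 (0.0738 and 0.0847) were lost, as was that of Cd74 without DMSO replicate 1 (0.0505) and that of Parp9 without RDF replicate 2 (0.0520).

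Markers of the stem cells themselves were high in every sample, and of the 8 listed and tested 4 fell and 2 rose. Pou5f1 (1285 and 1223 FPKM in DMSO, 1031 and 939 FPKM in RDF), Utf1, Dppa5a and Tdgf1 fell, while Sox2 and Zfp42 rose. The summed level of the 8 was 7808 and 7748 FPKM in DMSO and 5017 and 4547 FPKM in RDF, most of it from Dppa5a. The list of 12 fibroblast genes, which include markers of feeder cells, moved with the condition: of 6 tested, Col1a1, Col1a2, Postn and Fbln2 fell and Dcn rose, and none of the 12 was at 0 throughout. Their summed level was 40.3 and 37.8 FPKM in DMSO and 23.5 and 25.4 FPKM in RDF, with log2 fold changes from −1.76 for Col1a1 to 1.65 for Dcn. Postn had a mean of 0.690 FPKM in RDF, so that it too entered the test only through its DMSO values. Fibroblasts also express interferon-induced and class I genes, and the part of these cells in the falls of Gbp2, Irgm1, Zbp1, Psmb10, Psmb8, Tapbp and Tap2 was not tested. The summed level of 10 leukocyte markers was 172 and 171 FPKM in DMSO and 131 and 150 FPKM in RDF, nearly all of it from Cd68 and Laptm5, of which Laptm5 fell (log2 fold change −0.47), while Ptprc, the marker of all leukocytes, was at 0.0387 FPKM or less and Lyz2 was at 0. Of 6 mast cell and basophil markers, 5 were at 0 in all samples and the other reached 0.0815 FPKM in 1 RDF sample. Of the 2 primitive endoderm markers tested, Gata6 rose, with a sum over the 6 listed of 7.44 and 5.95 FPKM in DMSO and 9.87 and 10.5 FPKM in RDF. Of the 3 trophoblast markers tested, Tfap2c and Hand1 rose and Krt7 was not called, with a sum over the 6 listed of 39.3 and 36.7 FPKM in DMSO and 66.8 and 67.8 FPKM in RDF. Most of this sum came from Tfap2c, at 27.2 and 25.1 FPKM in DMSO and 48.3 and 50.7 FPKM in RDF. Cdx2 and Elf5 were at 0.735 FPKM or less with overlapping groups, and Prl3d1 was at 0. The part of these cell types in the results was not tested either.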

How the data were processed

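The authors prepared stranded mRNA libraries, each from 150 ng of RNA. The deposited values are FPKM that the authors estimated with Cufflinks 2.2.1 after mapping with TopHat2 2.0.14 and Bowtie2 2.1.0 to mm9, versions as given in the submitters' processing notes. FPKM hold no fragment numbers. Low values of genes with 1 transcript pointed to 9540000 to 12360000 fragments, but only 39.5% to 43.1% of them lay within 0.1 of a whole fragment (20% if spread evenly), so reads were not recovered and the depth stays uncertain. FPKM summed to 718064 to 764461 per sample, and replicates correlated at r = 0.986 in DMSO and 0.99 in RDF across genes.

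The 11733 genes whose mean reached 1 FPKM were compared as log2(FPKM + 1), RDF against DMSO, with limma 3.58.1 in R 4.3.3 (lmFit, eBayes with trend, Benjamini-Hochberg adjustment). The fit was also run on simulated data with independent noise, which cannot show whether the replicates here are independent. Fold changes on this scale understate the change of low genes. With 2 samples against 2 the smallest two-sided p of an exact permutation test is 0.333, and such tests were left out. Alternatives changed the pseudocount, filter, scaling, trend, replicate block and samples. The 47 genes and the other lists were chosen with earlier results of these data known. Called genes and the 10 genes of highest mean are given in every sample, and of each other list at most 4 called genes of smallest adjusted p plus Jak1, Psmb5, Psmb6 and Psmb7. A further gene of this rule is not reported here. Sample values of further members, such as Oasl2, were added after they had been seen. Lists were matched by symbol, 2 through RefSeq synonyms, and 1 symbol was not found. Gene positions are those of GENCODE vM1 on NCBIM37 (mm9). Promoter sequences are RefSeq's on GRCm38.p6 and were matched by symbol.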

Additional observations from a re-analysis of the deposited data

How the results depend on the processing

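Of 83 values of the 8 called genes under the alternatives, 75 kept direction and call and 8 lost the call, all of B2m or Tap2. Of 171 values of the named genes outside the 47, 147 kept both, 23 lost the call and 1 turned sign. The count of genes that fell, 7, was 2 with a mean of at least 5 FPKM, a setting that leaves fewer genes to test, and 6 to 8 with each sample left out. The count that rose, 1, was 0 without the filter, with median-ratio scaling and without the trend, and 0 to 1 with each sample left out. The other pathway genes that fell numbered 11 at 5 FPKM and 5 to 15 with each sample left out, and those that rose 1 to 4. Over all genes, 942 rose and 606 fell without the filter, and 311 to 1188 rose and 238 to 763 fell with each sample left out. The median log2 fold change of the tested genes was −0.20 with a pseudocount of 0.1, −0.12 at 5 FPKM, −0.20 with median-ratio scaling, −0.23 with quantile normalization and −0.20 to −0.16 with each sample left out. Signs turned in genes near 0: Eif2ak2 (−0.0177 with median-ratio scaling, −0.0512 with quantile normalization, −0.0755 to 0.0946 with each sample left out), Psmb7 (0.00037 with quantile normalization), and, in the lowest and highest values with each sample left out, Oas1a (−0.18 to 0.0042), Oas2 (−0.21 to 0.11) and Mavs (−0.140 to 0.0723). The cause of these shifts was not tested. Samples of the same replicate number share only that number (r = 0.134 between deviations of same-numbered samples across genes). With a replicate block, 9 of the 47 genes fell and 1 rose, with Bst2 (adjusted p = 0.0249) and Igtp (0.0369) added, and 1651 and 1066 of all genes rose and fell. With 2 samples a condition, a miss of the threshold does not show that a gene did not change.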
